A study of Mus musculus with 22 samples.

Results

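The genes described here are the nuclear-encoded genes of oxidative phosphorylation, chosen by name alone. All symbols in the count tables that begin with Ndufa, Ndufb, Ndufc, Ndufs, Ndufv, Cox4 to Cox8, Uqcr or Atp5, together with Sdha, Sdhb, Sdhc and Sdhd, were taken, and 1 symbol ending in -ps was left out. The rule found 93 of 32285 genes: 38 subunits of complex I, 8 complex I assembly factors, 4 subunits of complex II, 8 of complex III, 18 of complex IV and 17 of ATP synthase. The rule used no measured value, and complexes were assigned by symbol, so Ndufa4 and Ndufa4l2 count under complex I throughout.

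Gastruloids are free-floating aggregates of embryonic stem cells that form derivatives of the germ layers along a body axis. All were grown from the mouse embryonic stem cell line E14Tg2A, seeded at 300 cells per well, left for 48 hours to aggregate and then exposed to CHIR99021 at 3 µM, which blocks GSK3 and so switches on the Wnt pathway. No untreated group entered the comparisons, and days are counted from seeding as the labels give them. Single gastruloids were marked with lipid-anchored MULTI-seq barcodes, pooled, and sequenced by 10x Chromium single cell 3′ v3.1 chemistry, which counts each captured RNA molecule once through a unique molecular identifier (UMI). MULTI-seq 1 held 24 gastruloids of day 5. MULTI-seq 2 gave 11 gastruloids of day 4 and 12 of day 4.5 with enough cells, from 1 pool. MULTI-seq 3 held 24 gastruloids of day 3 in 1 pool, 16 of day 3.5 and 16 of day 4 in the second, and 16 of day 4.5 and 16 of day 5 in the third. The titles name no pool in MULTI-seq 3, so pool here means a set of lanes that shared gastruloids. The lane labels number these sets as separate experiments, while the titles place them all under 1 MULTI-seq experiment. The gastruloid was the replicate throughout. All groups come from 1 cell line, and a gastruloid has no extraembryonic tissue or implantation site, which limits it as a model of the embryo.

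Oxidative phosphorylation couples the oxidation of NADH and succinate to ATP synthesis at the inner mitochondrial membrane. Complex I takes electrons from NADH and complex II from succinate, complex III passes them to cytochrome c, complex IV passes them to oxygen, and ATP synthase uses the proton gradient that complexes I, III and IV build. Most subunits are encoded in the nucleus and a smaller set in mitochondrial DNA, except for complex II, which is wholly nuclear. In the early embryo, pluripotent cells are known for strong glycolysis, and the balance with respiration shifts as cells differentiate. Nuclear respiratory factor 1 (NRF1) is a known activator of many of these genes.

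The cell table held 77674 cells of 18 lanes under 25 cluster names, of which 53730 were assigned to 136 gastruloids, and 135 gastruloids had at least 30 cells. Each of these 135 had between 1293296 and 57333371 UMIs. The median depth per cell was 11141.5 UMIs in MULTI-seq 1 and between 25103 and 36103 in the groups of the later experiments. Lanes shared few cell barcodes: 732 of 76935 distinct barcodes occurred in more than 1 lane, with at most 15 shared by any pair. The 5 defining markers of each of the 14 lists checked were above the median of the other clusters in the cluster the list is named for. Some lists peaked in a neighbouring cluster, such as the primitive streak list in Anterior Primitive Streak. Summed blood markers reached at most 2.27 CPM (UMIs of a gene per UMIs of the library, scaled to the usual common total) in any cluster, and extraembryonic endoderm markers at most 10.0 CPM.

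RefSeq promoter entries on GRCm38.p6, 250 bases before to 50 after the gene start, matched 75 of the 93 genes. The NRF1 letters GCATGCGC (searched on both strands, so also as GCGCATGC) occurred in 12 of these, 16% of the genes matched, against 3.68% of all 20267 genes with an entry of the same length. The YY1 letters AAGATGG occurred in 11 genes (14.7% against 7.21%), the letters AAGGTCA of estrogen-related receptors in 8 (10.7% against 4.97%), and the ETS letters CCGGAAGT, which GABPA recognises, in 5 (6.67% against 5.31%). At least 1 of the 4 occurred in 33 genes, 44% against 19.4%. A match is a string of letters and no evidence of binding. For 4 genes called lower on day 4 than on day 3.5, the stretch before the RefSeq start that lies in no GENCODE exon is shown, up to 150 bases, 5′ to 3′ on the strand of the gene, with the NRF1 letters in capitals. The set is the gene with the largest called fall and, for each complex that had one, the gene with the largest called fall among those with the NRF1 letters in that stretch. The stretch ends at the RefSeq start except in Cox6a1, where it ends 23 bases before it. Matches on the 2 strands overlap in Ndufaf4, Cox6a1 and Ndufa11 and make 1 longer capital run.
Cox6b2 (chr7:4753095-4753225, minus strand, the largest called fall, with none of the 4 strings in this stretch): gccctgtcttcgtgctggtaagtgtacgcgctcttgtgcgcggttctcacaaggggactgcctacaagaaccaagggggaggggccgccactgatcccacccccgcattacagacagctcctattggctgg
Ndufaf4 (chr4:24897933-24898082, plus strand, the assembly factor with the largest fall, a log2 fold change of −0.62): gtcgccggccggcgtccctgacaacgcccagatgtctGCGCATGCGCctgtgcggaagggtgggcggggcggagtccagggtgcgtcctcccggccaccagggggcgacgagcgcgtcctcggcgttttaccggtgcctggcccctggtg
Cox6a1 (chr5:115348982-115349129, minus strand, a complex IV subunit, −0.23): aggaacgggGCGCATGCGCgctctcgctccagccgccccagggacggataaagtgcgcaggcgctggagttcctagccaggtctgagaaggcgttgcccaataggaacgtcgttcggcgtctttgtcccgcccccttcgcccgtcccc
Ndufa11 (chr17:56717686-56717761, plus strand, a membrane-arm subunit of complex I, −0.07): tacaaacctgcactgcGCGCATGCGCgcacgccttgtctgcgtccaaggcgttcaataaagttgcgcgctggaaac

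Together the 93 genes gave between 2.21% and 3.16% of all UMIs of a gastruloid. In MULTI-seq 3 the share was 3.02 ± 0.0496% on day 3 (SD, n = 24; lowest 2.93, median 3.01, highest 3.16), 2.69 ± 0.0738% on day 3.5 (n = 16; 2.58, 2.69, 2.79) and 2.41 ± 0.0767% on day 4 (n = 16; 2.31, 2.40, 2.61). It was 2.87 ± 0.0453% on day 4.5 (n = 16; 2.79, 2.88, 2.97) and 2.82 ± 0.0390% on day 5 (n = 16; 2.77, 2.82, 2.91). All gastruloids of day 3 were therefore above all others of MULTI-seq 3 except for the upper end of day 4.5, and days 3.5 and 4 overlapped only at their edges. In MULTI-seq 2 the share was 2.61 ± 0.0994% on day 4 (n = 11; 2.495, 2.58, 2.79) and 2.60 ± 0.0605% on day 4.5 (n = 12; 2.51, 2.61, 2.71). In MULTI-seq 1 it was 2.31 ± 0.0397% on day 5 (n = 24; 2.21, 2.31, 2.39). Gastruloids of the same age in different experiments did not overlap on days 4.5 and 5, and overlapped on day 4. With mitochondrial and ribosomal protein genes left out of the total, the MULTI-seq 3 means were 4.67, 3.95, 3.53, 4.37 and 4.30% in the order of the days, which kept the low point on day 4. A share of summed UMIs cannot tell fewer cells of a type from less RNA per cell.

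**Figure D1:**
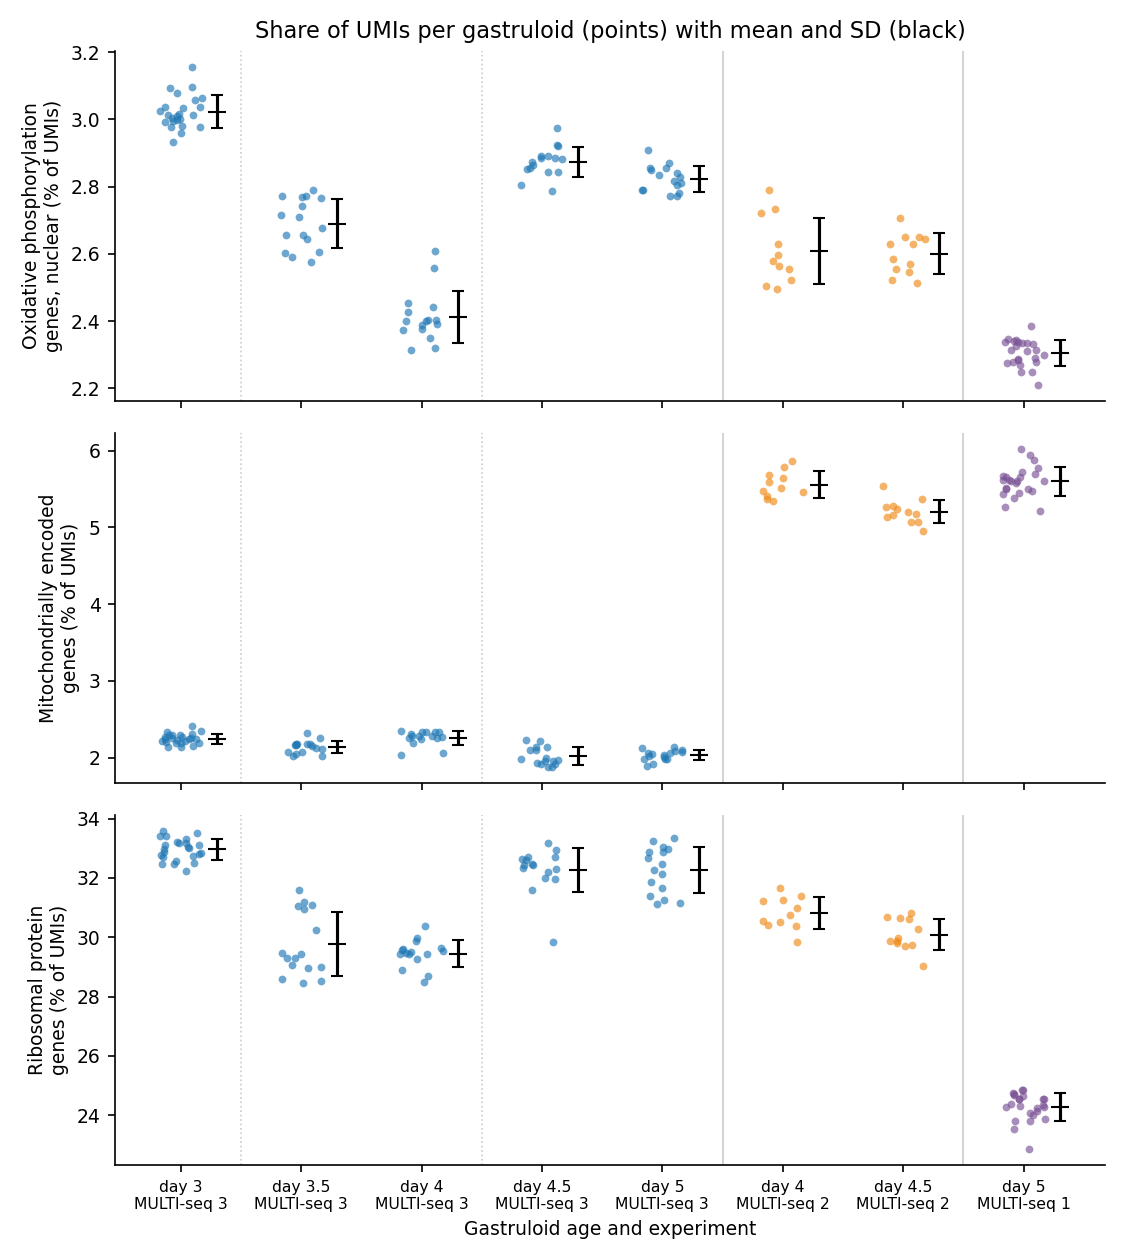
Share of all UMIs (%) from the 93 genes (top), the mitochondrially encoded genes (middle) and ribosomal protein genes (bottom); each point is 1 gastruloid, black marks give the mean and SD, dotted lines separate pools of MULTI-seq 3, solid lines separate experiments, and no vertical axis starts at 0. In MULTI-seq 3 the mean of the 93 genes was 3.02% on day 3, 2.41% on day 4 and 2.82% on day 5.

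Levels differed widely between the genes, and the scale used here for them is the mean CPM over the groups, where 1 UMI is 1 molecule whatever the transcript length. Cox4i1, the common form of subunit 4 of complex IV, was highest of all 93 at 1103 CPM. Atp5g2, which encodes a copy of the membrane c subunit of ATP synthase, followed among the ATP synthase genes at 952 CPM. Ndufa4, named for complex I but now known as a complex IV subunit, stood at 809 CPM, and Uqcrh, the hinge protein of complex III, at 637 CPM. Complex II was lower, with Sdhb, its iron-sulfur subunit, at 135 CPM, Sdhd at 116, the flavoprotein Sdha at 89.6 and Sdhc at 88.6 CPM. Ndufaf4 led the assembly factors at 117 CPM. In day 3 gastruloids of MULTI-seq 3, ATP synthase genes gave 0.947% of UMIs, complex I subunits 0.899%, complex IV 0.802%, complex III 0.282%, assembly factors 0.048% and complex II 0.044%. The complex I share includes Ndufa4 by its symbol, and the order of complexes I and IV depends on that placing. Of the 93, 10 (10.8%) were among the 4214 genes the authors marked as variable, which were 13.1% of all genes, and 5 of those 10 were complex IV genes.

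The first comparison asked what changed between day 3.5 and day 4 in MULTI-seq 3, where both ages shared 1 pool and its lanes. Nearly all of these genes were lower on day 4, by small amounts: edgeR's quasi-likelihood test with Benjamini-Hochberg adjustment over all 13262 genes tested called 76 of the 89 that passed the filter lower and 1 higher. The background was 29.2% of all genes called lower and 31.1% called higher. The median log2 fold change of the 89 was −0.17, against 0.01 for all genes. Cox6a2, Cox7b2, Cox8b and Cox8c, at most 0.383 CPM in any group mean, were too low to test here and in every other comparison of days. Library-total scaling gave 72 lower and 3 higher, against 25.4% and 34.9% of all genes.

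The fall took in every complex. Complex III had 8 of 8 genes lower (median log2 fold change −0.24) and complex II 4 of 4 (−0.15). Among complex I subunits 32 of 38 were lower (−0.15), and 5 of 8 assembly factors (−0.17). ATP synthase had 15 of 17 lower (−0.17), and complex IV 12 of 14 lower with 1 higher (−0.18). Among other lists, 53 of 78 mitochondrial ribosomal protein genes were lower and 5 higher (−0.12), and 10 of 16 genes of the citric acid cycle were lower and 1 higher (−0.14). Of 13 mitochondrially encoded subunits, 3 were lower and 2 higher, with a median of 0.03.

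**Figure D2:**
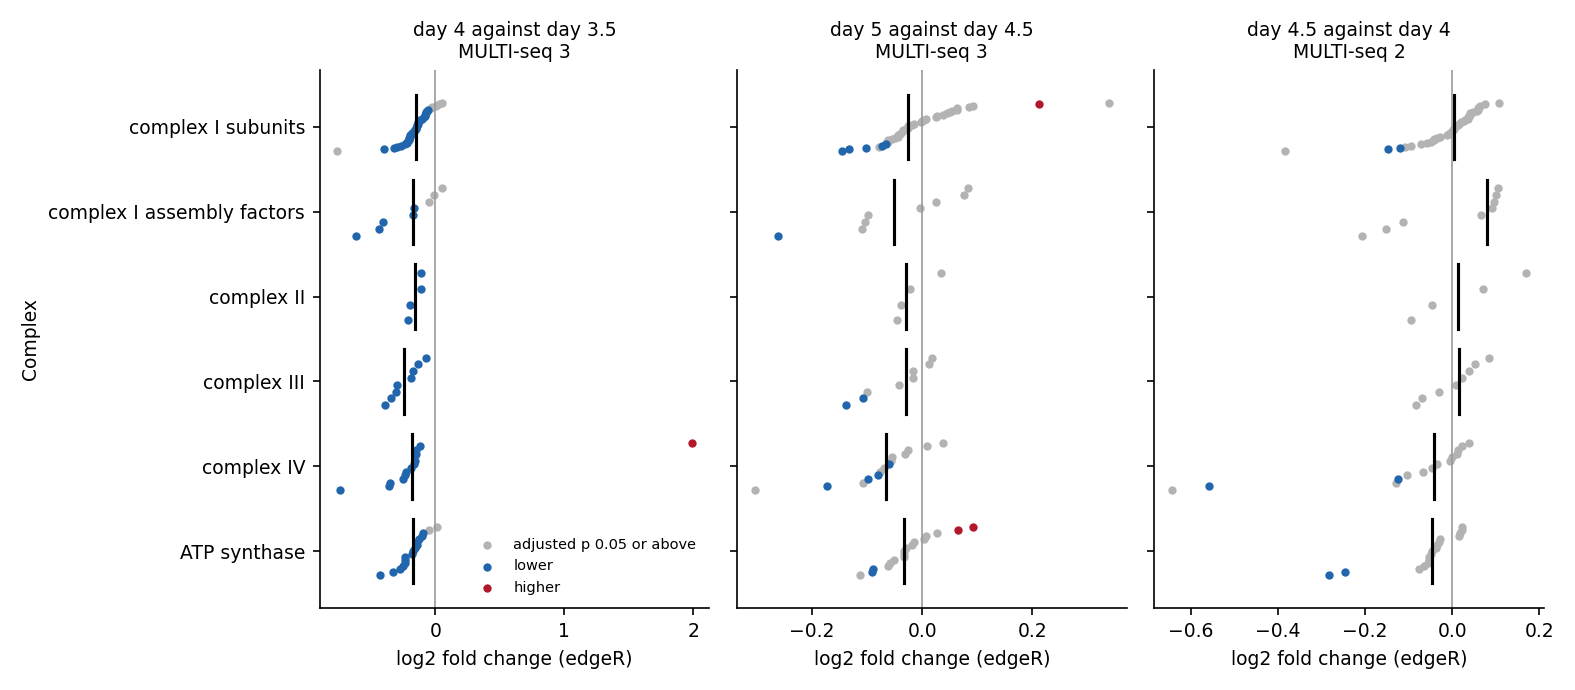
Log2 fold change of each tested gene by complex in the 3 comparisons of days within a pool, edgeR with TMM scaling; each point is 1 gene, blue and red points had an adjusted p under 0.05, grey ones did not, black bars are medians, and the panels have different horizontal scales. From day 3.5 to day 4 in MULTI-seq 3, 76 of 89 genes were called lower and 1 higher.

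Cox6b2, known as the testis form of a complex IV subunit that helps hold the enzyme's dimer together, had the largest called fall. It lies on chromosome 7 at 4751792 to 4753094 (GENCODE, GRCm38, minus strand). Its level in the gastruloids of day 3.5 ranged from 81.6 through a median of 95.5 to 114 CPM, and on day 4 from 45.6 through 55.9 to 85.2 CPM. Only the top of the day 4 group reached into the day 3.5 group, and the log2 fold change was −0.74 (SE 0.06, adjusted p = 1.37e-10, edgeR, n = 16 and 16). Its widely expressed partner Cox6b1 moved from 565 ± 15.6 to 503 ± 25.5 CPM, a log2 fold change of −0.19 (SE 0.02, adjusted p = 7.74e-09).

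Ndufaf4, an assembly factor that acts early in building complex I, and Ndufaf6, a factor also needed for early assembly, fell next. Ndufaf4 (chromosome 4, 24898083 to 24905001, plus strand) was at 122 to 187 CPM on day 3.5, median 159, and at 67.4 to 142 CPM on day 4, median 106. The groups overlapped in part, with a log2 fold change of −0.62 (SE 0.08, adjusted p = 3.36e-07, edgeR). Ndufaf6 was at 40.1 to 54.1 CPM, median 45.7, and then at 29.9 to 40.3 CPM, median 34.6. Its groups met only at their edges, and it fell by 0.44 on the log2 scale (SE 0.05, adjusted p = 3.60e-09, edgeR).

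Atp5l, the g subunit of the ATP synthase membrane part, was the fourth. It ranged from 354 to 478 CPM on day 3.5, median 423, and from 285 to 366 CPM on day 4, median 320, with a slight overlap, and it fell by 0.43 on the log2 scale (SE 0.04, adjusted p = 3.07e-09, edgeR). For Ndufa8, an accessory subunit of complex I, and Atp5f1, the b subunit of the ATP synthase stalk, the groups did not overlap at all. Ndufa8 was at 139 to 161 CPM on day 3.5, median 148, and 117 to 132 CPM on day 4, median 127. Atp5f1 was at 499 to 572 CPM, median 536, and then at 438 to 492.8 CPM, median 461. These were 2 of 89 genes with every day 4 gastruloid lower, where the background over 16012 genes was 0.231% lower and 0.724% higher.

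The 4 complex II genes fell by smaller amounts. Sdhd, a membrane anchor, fell by 0.21 on the log2 scale, Sdhb by 0.20, and Sdhc, the other anchor, and Sdha by 0.11 each (edgeR, adjusted p between 3.07e-08 and 0.00195). Their groups overlapped, as with Sdhb at 120 to 143 CPM on day 3.5 and 112 to 135 CPM on day 4. With the neural share of cells as a covariate, Sdhc was no longer called, at a log2 fold change of −0.036. The abundant genes moved less than the 4 named first: Cox4i1 went from 1168 ± 53.2 to 1098 ± 31.5 CPM (log2 fold change −0.12, adjusted p = 2.64e-04, edgeR). Atp5g2 went from 973 ± 43.2 to 1004 ± 49.5 CPM and was not called (0.02, adjusted p = 0.604).

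Cox4i2, an alternative form of Cox4i1 known from the lung and from cells at low oxygen, was the exception. It rose from a range of 0.309 to 3.75 CPM, median 1.03, on day 3.5 to 0.802 to 10.1 CPM, median 6.05, on day 4. The groups overlapped, and the log2 fold change was 1.99 (SE 0.30, adjusted p = 1.91e-06, edgeR). The log2 fold change of Cox4i2 was 1.22 with the neural share of cells as a covariate (adjusted p = 5.16e-05, edgeR). Ndufa4l2, a relative of Ndufa4 induced by HIF-1 at low oxygen, ranged from 0.511 to 18.2 CPM between gastruloids of day 3.5 and was not called (−0.76, adjusted p = 0.0906, edgeR). With the same covariate it was called, at −1.67 (adjusted p = 1.16e-07). Atpif1, the inhibitor of ATP synthase, was at a mean of 511 CPM on day 3.5 and 568.1 CPM on day 4, a log2 fold change of 0.13 (adjusted p = 1.25e-04, edgeR).

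The makeup of the gastruloids changed over the same step. Cells under neural cluster names made up a mean of 37.3% of a gastruloid on day 3.5 (median 43.9%) and 10.2% on day 4 (median 1.18%). Mitochondrially encoded genes gave 2.14% and 2.26% of UMIs, and ribosomal protein genes 29.8% and 29.4%. With the neural share as a covariate the count was 77 lower and 1 higher, against 25.1% and 25.6% of all genes in that fit. In the fit without that covariate, 31.1% of all genes were higher and 29.2% lower. Genes of glycolysis leaned upward in it, with 11 of 20 higher and 5 lower (median 0.13). The rises were led by Aldoc (1.61), an aldolase, and Slc16a3 (1.18), a lactate exporter, while Hk2, a hexokinase, fell by 0.41 on the log2 scale. Cyc1 and Cycs, the cytochromes that carry electrons through and from complex III, fell by 0.32 and 0.36 on that scale. Among 12 regulators of mitochondrial biogenesis tested in that fit, 6 were lower and 1 higher. The coactivator Ppargc1b fell by 1.31, Esrra by 0.27 and Tfam, which binds mitochondrial DNA, by 0.25 on the log2 scale. Nrf1 itself stood at −0.00 (adjusted p = 0.959). Genes with the NRF1 letters (12 tested) had a median log2 fold change of −0.24 and 10 were lower, and those with an entry but no match (61 tested) had −0.16 and 52 lower. That difference between the sets was not tested.

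Summing UMIs over the cells of 1 cluster name in 1 gastruloid set aside changes in the mix of names. It depends on the authors' names, which were made from the same cells' expression. A change in makeup among the cells under 1 name was not separated. In Early Posterior PSM (presomitic mesoderm), the progenitor of the somites, 69 of 89 genes were lower on day 4 and 1 higher (edgeR, 10 gastruloids of day 3.5 and 15 of day 4 with at least 20 such cells). The background over 10049 genes was 18.6% lower and 18.3% higher, and the median of the members was −0.16. Library-total scaling gave 49 lower and 2 higher, where 1259 and 2766 of the 10049 genes were called. It moved the median of all genes by less than 0.1. In Caudal Epiblast, the posterior progenitor that also feeds the spinal cord, 3 of 86 were lower and 7 higher (13 and 13 gastruloids), with a median of −0.00. There the background was 9.19% lower and 9.58% higher, and library-total scaling split the calls 5 and 5, against 908 and 753 of 8851 genes. With at least 50 Caudal Epiblast cells, in 7 and 3 gastruloids, edgeR called 0 of 87, with 1 higher and 0 lower at an unadjusted p under 0.05. Over 10375 genes that fit called only 14 lower and 20 higher.

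The share of UMIs showed the same contrast. In Early Posterior PSM it was 2.67 ± 0.112% on day 3.5 (n = 10; 2.51, 2.65, 2.87) and 2.45 ± 0.0734% on day 4 (n = 15; 2.35, 2.43, 2.61). In Caudal Epiblast it was 2.74 ± 0.0631% (n = 13; 2.66, 2.72, 2.89) and 2.73 ± 0.0862% (n = 13; 2.58, 2.73, 2.86). The first pair overlapped in part and the second almost wholly. Over the same cells, ribosomal protein genes moved from 31.6% to 30.01% of UMIs in Early Posterior PSM and from 29.5% to 30.4% in Caudal Epiblast. The part of that movement in the result was not tested.

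**Figure D3:**
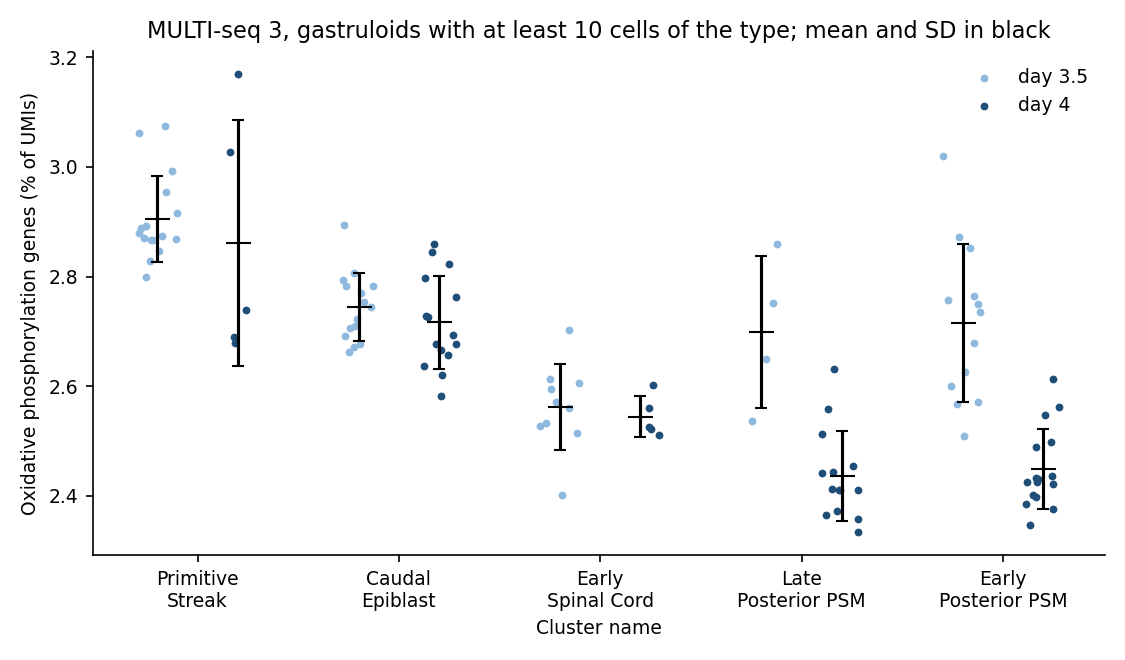
Share of UMIs (%) from the 93 genes on days 3.5 and 4 of MULTI-seq 3 by cluster name; each point sums the cells of 1 name in 1 gastruloid with at least 10 such cells, black marks give the mean and SD, and the vertical axis does not start at 0. With this lower limit of cells the mean went from 2.72% to 2.45% in Early Posterior PSM and from 2.74% to 2.72% in Caudal Epiblast.

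The difference between these types was tested itself, in a fit chosen after seeing the data that kept the gastruloid as a block. The change in Early Posterior PSM minus that in Caudal Epiblast was below 0 for 31 of 89 genes and above 0 for 1 (edgeR, 10 and 12 gastruloids with both types). The background over 10232 genes was 6.01% and 3.04%, and the median of the members was −0.15. The gene above 0 was Cox4i2, at 1.59 (SE 0.49, adjusted p = 0.0369, edgeR). With a limit of 10 cells, 42 of 87 were below 0 and none above, against 7.71% and 4.93% of all genes.

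Cox8a, the widely expressed form of the smallest complex IV subunits, shows the pattern. In Early Posterior PSM it was at 825 to 1040 CPM on day 3.5, median 921, and at 693 to 900 CPM on day 4, median 750. In Caudal Epiblast it was at 880 to 993 CPM and then at 863 to 1003 CPM, with medians of 918 and 927. The first pair overlapped in part and the second almost wholly, with a difference of −0.35 on the log2 scale (SE 0.05, adjusted p = 1.94e-05, edgeR). Cox7a2 differed by −0.57 (adjusted p = 0.00282), Cox6b2 by −0.63 (0.00216), Ndufaf4 by −0.41 (0.00215), Atp5o, the stalk protein that confers oligomycin sensitivity, by −0.27 (2.86e-04) and Uqcrh by −0.31 (3.20e-04), all from edgeR with Benjamini-Hochberg adjustment.

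Within Early Posterior PSM the largest called fall was that of Ndufa4l2, from 4.56 to 20.3 CPM on day 3.5 (median 10.99) to 2.02 to 9.28 CPM on day 4 (median 4.17). Its log2 fold change was −1.40 (SE 0.22, adjusted p = 4.52e-06, edgeR, 10 against 15 gastruloids). Cox7a1, the heart and skeletal muscle form of Cox7a2, fell by 0.58 on the log2 scale (adjusted p = 0.0203), Cox7a2 by 0.46 (6.40e-06) and Ndufaf4 by 0.44 (1.90e-07). Cox4i2 rose there from 0 to 5.57 CPM, median 1.82, to 2.66 to 12.8 CPM, median 6.93 (1.26, SE 0.26, adjusted p = 2.71e-04, edgeR). In Caudal Epiblast, Cox4i2 had means of 1.17 and 1.10 CPM. The called rises there were led by 2 assembly factors, Ndufaf3, which works with Ndufaf4, at 0.32 (adjusted p = 0.00953) and Ndufaf1 at 0.30 (0.0181), followed by Cox6b2 at 0.24 (0.0331). Ndufa8 fell by 0.14 on the log2 scale in that type, Atp5l by 0.12 and Atp5a1, the catalytic-head alpha subunit, by 0.10.

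Other types were smaller, and a limit of 10 cells in at least 4 gastruloids a day was added after seeing the data to reach them. In Late Posterior PSM (4 and 14 gastruloids) 44 of 86 genes were lower and none higher, against 5.90% and 3.62% of 9631 genes, with a median of −0.20. Early Spinal Cord (10 and 5) had 1 of 85 higher and none lower, where 1.35% and 1.45% of all genes were called. Primitive Streak (16 and 5) had 2 of 87 higher and 1 lower, where 2.72% and 2.86% were called. In Early Nascent Mesoderm (6 and 4), edgeR called 0 of 86, with 0 higher and 17 lower at an unadjusted p under 0.05, and called 0.322% and 0.410% of all genes. The median of the members there was −0.11, against 0.02 in Early Spinal Cord and −0.00 in Primitive Streak. The shares called in both presomitic mesoderm types were above their backgrounds. Early Nascent Mesoderm had few calls among all genes, so its count of 0 says little. Early Spinal Cord and Primitive Streak also had small shares of all genes called. The day 4 sums of Primitive Streak held only 10 to 17 cells each, so few calls in these types do not show that nothing changed. Differences between these types were not tested apart from the one given.

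From day 4.5 to day 5 in MULTI-seq 3, again within 1 pool, little moved. Of 89 genes 14 were lower and 3 higher (edgeR, Benjamini-Hochberg), the background of 12298 genes being 7.11% lower and 6.35% higher, and the median log2 fold change was −0.03. No complex II gene was called, and complex I had 5 subunits lower and 1 higher. Complex IV had 4 lower, complex III 2 lower, and ATP synthase 2 each way. With the neural share as a covariate 23 were lower and 4 higher, while over all genes the shares were 12.2% and 12%. Neural cells made up a mean of 41.6% of a gastruloid on day 4.5 (median 21.2%) and 33.9% on day 5 (median 29.7%).

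Ndufaf4 had the largest called fall. It was at 89.2 to 118 CPM on day 4.5, median 107, and at 78.3 to 98.8 CPM on day 5, median 90.5, overlapping in part (log2 fold change −0.26, SE 0.04, adjusted p = 4.78e-05, edgeR). Cox7a2, the widely expressed partner of Cox7a1, went from 611 ± 50.6 to 549 ± 24.2 CPM and fell by 0.17 on the log2 scale (adjusted p = 6.90e-04). Ndufa1 and Uqcr10, small accessory subunits of complexes I and III, each fell by 0.14 on that scale. The rises were those of Ndufv3, an accessory subunit of the NADH-binding arm, and of Atp5d and Atp5e, the delta and epsilon subunits of the rotor stalk. Ndufv3 was at 112 to 132 CPM, median 122, and then at 128 to 160 CPM, median 141. Those groups overlapped narrowly, at a log2 fold change of 0.21 (SE 0.04, adjusted p = 2.36e-04, edgeR). Atp5d rose by 0.09 and Atp5e by 0.06 on the log2 scale (adjusted p = 0.0124 and 0.00391).

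Within types the calls were few over this step. Early Spinal Cord (14 and 15 gastruloids) had 3 of 86 genes lower and 4 higher, against 5.99% and 6.33% of all genes tested there. By library totals 4 were lower and 7 higher, against 535 and 564 of 9150 genes. Late Spinal Cord (7 and 8) had 1 of 87 lower and 7 higher, against 3.89% and 3.90%, and library-total scaling gave 4 and 5. That scaling called 594 lower and 308 higher of 9921 genes. NMPs, the neuromesodermal progenitors (8 and 14), had 11 of 86 lower and none higher, against 3.49% and 2.58%, and 6 lower and 3 higher by library totals. Over all 8460 genes, library totals gave 163 lower and 342 higher. Mature Somites (10 and 16) had 11 of 89 lower and 4 higher, against 7.66% and 6.94%. Late Posterior PSM (9 and 15) had 7 of 86 lower and 1 higher, against 3.02% and 3.14%, and 4 each way by library totals. Library totals called 169 lower and 371 higher of 8421 genes there. With at least 50 such cells (4 and 9 gastruloids), 1 of 86 was lower and none higher, against 97 and 139 of 9001 genes. Late Anterior PSM (5 and 12) had 2 of 85 lower and none higher, against 0.930% and 0.875%. Ndufv3 was called higher in Early Spinal Cord (0.18), Late Spinal Cord (0.33) and Mature Somites (0.23). Ndufaf4 was called lower in Early and Late Spinal Cord (−0.28 and −0.29), and Ndufa4 in NMPs, Late Posterior PSM, Late Anterior PSM and Mature Somites (−0.18, −0.17, −0.26 and −0.16). In Mature Somites, Cox4i2 fell by 0.98 on the log2 scale (SE 0.23, adjusted p = 0.00270, edgeR).

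Of 20 glycolysis genes tested on this step, 11 were higher and none lower, with a median of 0.20, against 6.35% and 7.11% of all genes. Pdk1, the kinase that shuts pyruvate out of the citric acid cycle, rose by 0.94, Slc16a3 by 0.92 and Pgk1, phosphoglycerate kinase, by 0.52 on the log2 scale. Of 16 citric acid cycle genes 0 were called by edgeR (0 higher and 1 lower at an unadjusted p under 0.05) and 0 by DESeq2, and 1 of 13 mitochondrially encoded genes was lower.

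From day 4 to day 4.5 in MULTI-seq 2, whose ages also shared a pool, 6 of 89 genes were lower and none higher (edgeR), where 4.33% and 3.03% of 11064 genes were called, and the median was −0.00. Library-total scaling split the calls 4 lower and 2 higher, against 3.44% and 4.62% of all genes. Atp5l went from 348 to 435 CPM, median 386, to 300 to 359 CPM, median 323 (log2 fold change −0.28, SE 0.04, adjusted p = 4.65e-05). Atp5c1, the gamma subunit that turns in the rotor, went from 378 to 461 CPM, median 442, to 357 to 386 CPM, median 372 (−0.24, SE 0.03, adjusted p = 2.79e-05). Both pairs of groups overlapped only in a few gastruloids. The other called genes were Cox7a1 (−0.56, adjusted p = 0.0408, at 4.11 and 3.05 CPM), Ndufb4 (−0.15, 0.0345), Cox7a2l, which joins complexes III and IV (−0.12, 0.00711), and Ndufa4 (−0.12, 0.00106). Without lane 3 of the pool 2 genes were called lower, Atp5l and Atp5c1, against 2.04% of all genes.

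Sdhb was just short of the threshold, at 94.2 to 136 CPM on day 4 and 114 to 143 CPM on day 4.5 (0.17, adjusted p = 0.0531, edgeR). With the neural share as a covariate 19 genes were lower and 1 higher, while over all genes the shares were 7.41% and 7.02%. The neural share had means of 23.0% on day 4 and 43.5% on day 4.5, with medians of 2.5% and 21.7%. Without that covariate, where 4.33% of all genes were lower, 9 of the 13 mitochondrially encoded genes were lower, with a median of −0.13. In glycolysis 1 of 20 was lower, Ldhb (−0.64).

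The other steps of MULTI-seq 3 crossed pools, so that age and pool cannot be told apart in them. The lane labels number those pools as separate experiments. From day 3 to day 3.5, 84 of 88 genes were lower and 2 higher (edgeR, 24 against 16 gastruloids), where 35.6% and 39.3% of 11981 genes were called, with a median of −0.33. Library-total scaling moved the median of all genes by 0.16 and left 77 lower and 5 higher. Under it 2566 of the 11981 genes were lower and 6629 higher. Cox7a1 fell most, from 6.66 to 11.04 CPM (median 8.95) to 2.70 to 6.498 CPM (median 5.19), without overlap (−1.03, SE 0.07, adjusted p = 8.24e-17). Ndufa4l2 followed at −0.90, then Ndufs8, an iron-sulfur core subunit of complex I, at −0.56 and Cox6b2 at −0.55. Ndufa4l2 was at −0.44 with the neural share as a covariate (adjusted p = 0.00578, edgeR). Ndufs1, the largest core subunit of complex I, rose by 0.21, and Ndufaf1 by 0.15 on the log2 scale. In complex II, 3 of 4 genes fell, and Sdha was at −0.00.

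From day 4 to day 4.5, 81 of 89 were higher and 4 lower, where 32.4% and 33.8% of 12843 genes were called, with a median of 0.46. Library-total scaling moved the median of all genes by −0.20 and gave 72 higher and 11 lower. That scaling called 2235 of the 12843 genes higher and 6886 lower. The rises were led by Uqcrq, a small complex III subunit, at 0.76, Cox7c at 0.71, and Ndufa12 and Ndufaf2, its assembly-factor relative, at 0.67 each. Uqcrq went from 233 to 381 CPM (median 253) to 321 to 446 CPM (median 405), with some overlap. The falls were those of Ndufa4l2 (−0.96), Cox4i2 (−0.77), Ndufs1 (−0.22) and Ndufaf1 (−0.12). With the neural share as a covariate, Cox4i2 stood at 0.034 and Ndufa4l2 at −0.028, neither called.

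The same days in MULTI-seq 2 gave a direct comparison of that last step. The change from day 4 to day 4.5 was larger in MULTI-seq 3 for 79 of 89 genes and smaller for 1 (edgeR interaction term), where 17.4% and 16.5% of 12551 genes were called, with a median difference of 0.46. Library-total scaling moved the median of all genes by −0.21 and gave 67 and 4. Over all 12551 genes it called 785 larger and 4561 smaller. The largest differences were those of Ndufa12 (0.76, SE 0.06), Uqcr11 (0.71), Uqcrq (0.67) and Cox7c (0.66), and Ndufs1 was the 1 called below 0 (−0.23, adjusted p = 0.00541). Of 78 mitochondrial ribosomal protein genes 73 shared the upward difference, with none downward. Of 16 citric acid cycle genes 6 were called upward and 3 downward. Experiment and pool cannot be told apart here, since MULTI-seq 3 had these days in separate pools.

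At the same age, the direction of the difference between experiments was not the same in each comparison. On day 4, MULTI-seq 3 was lower than MULTI-seq 2 in 71 of 89 genes and higher in 5 (23.1% and 23.0% of all genes), with a median of −0.30. On day 4.5 it was higher in 52 and lower in 13 (21.1% and 21.4%), with a median of 0.17. On day 5, MULTI-seq 3 was higher than MULTI-seq 1 in 70 and lower in 15 (30% and 33.7%), with a median of 0.46. Library-total scaling gave 54 lower and 15 higher on day 4, 48 higher and 20 lower on day 4.5, and 60 higher and 27 lower on day 5, moving the median of all genes by 0.16, −0.04 and −0.22. Over all genes it called 1554 of 13713 lower and 5319 higher on day 4. It called 1993 of 11695 higher and 3082 lower on day 4.5, and 1581 of 11718 higher and 7169 lower on day 5. Mitochondrially encoded genes, at 5.21 to 5.60% of UMIs in MULTI-seq 1 and 2 and 2.02 to 2.26% in MULTI-seq 3, were lower in MULTI-seq 3 for 13 of 13 genes on days 4 and 4.5, and for 12 on day 5, with 1 higher. Culture, library and lanes cannot be told apart from the experiment. In MULTI-seq 3 day 4 was in another pool than days 4.5 and 5, and day 5 was set against MULTI-seq 1. Day therefore cannot be told apart from the pool or from the experiment compared.

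Ndufa3, a small membrane-arm subunit of complex I, differed most on day 5, at 46.0 to 60.6 CPM in MULTI-seq 1 and 123 to 141 CPM in MULTI-seq 3 (log2 fold change 1.53, SE 0.02). Atp5k, the e subunit, was at 150 to 176 and at 343 to 372 CPM (1.37, SE 0.02). Neither gene's groups overlapped. Atp5md followed at 1.25 and Atp5e at 1.24. Sdhd was lower, at 141 to 172 and then 95.02 to 105 CPM (−0.44), as were Ndufa4l2 (−0.47), Ndufs1 (−0.46) and Ndufaf5, a modifier of a complex I core subunit (−0.39). Complex IV had 13 of 14 genes higher and none lower, while complex II had 3 of 4 lower and 1 higher.

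On day 4 the genes lower in MULTI-seq 3 were led by Ndufaf5 (−0.85), Ndufa12 (−0.78), Ndufb6 (−0.63) and Uqcrc2, a core protein of complex III (−0.62). The 4 largest called differences upward were those of Ndufs7 (0.23), Ndufa3 (0.19), Atp5g2 (0.16) and Ndufa11 (0.13). On day 4.5 Ndufa11, Ndufs7, Ndufa3 and Ndufs8 led the genes called higher, at 0.70, 0.66, 0.64 and 0.56. Ndufaf5 (−0.52), Sdha (−0.32), Atp5b, the catalytic beta subunit, and Ndufaf7 (−0.31 each) were the lowest called. Ndufaf5 was low in all of these groups, with means from 6.64 to 12.6 CPM.

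By the median length over a gene's annotated transcripts, these genes are short, with a median of 680 bases against 1961.5 over all genes. The range was from 321.5 in Atp5k to 2675.5 in Atp5g1. This length need not be that of the RNA expressed here, and was 651 bases in Ndufs1 and 2413 in Ndufb2. Across the genes tested, which are not independent replicates, length went with the difference between MULTI-seq 3 and 1 on day 5 (Spearman rho −0.66 over 89 genes, −0.11 over all genes with a length). The 45 genes up to the median of 704 bases had a median log2 difference of 0.65, and the 44 longer ones 0.15. On day 4.5 between MULTI-seq 3 and 2, rho was −0.49 (medians 0.23 and 0.04; −0.15 over all genes). For the step from day 4 to day 4.5 across pools of MULTI-seq 3 it was −0.46 (0.51 and 0.37; −0.33 over all genes), and for the difference of that step between experiments −0.47 (0.51 and 0.34; −0.39 over all genes). For the step from day 3.5 to day 4 within 1 pool, rho was −0.05, with medians of −0.16 and −0.17 in short and long genes, and 0.10 over all genes. From day 3 to day 3.5 across pools it was 0.06 over the members but 0.37 over all genes, and on day 4 between MULTI-seq 3 and 2 it was −0.20 and 0.24, of opposite sign. Within pools it was 0.20 and 0.02 from day 4.5 to day 5, and −0.07 and −0.05 in MULTI-seq 2. The part of length in the differences between experiments and across pools was not tested.

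The order of cell types was described, not tested, because the cluster names were made from the same cells' expression. On day 3 Primitive Streak was highest at 3.08 ± 0.0496% of UMIs (n = 24), beside Early Posterior PSM at 3.07 ± 0.0849% (n = 5), Early Nascent Mesoderm at 2.99 ± 0.102% (n = 12) and Early Neurectoderm at 2.97 ± 0.0616% (n = 16). No neighbours in that order differed by more than the larger of their SDs. On day 3.5 Primitive Streak led at 2.90 ± 0.0855% (n = 13) and Early Spinal Cord was last of 7 at 2.54 ± 0.0356% (n = 4).

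On day 4, Caudal Epiblast led 14 types at 2.73 ± 0.0862% (n = 13). NMPs came next at 2.57 ± 0.0705% (n = 9), a gap wider than the SDs, and Mature Endoderm came last at 2.29 ± 0.103% (n = 13). The 8 types from Late Posterior PSM to Late Anterior PSM lay between 2.29% and 2.42% and no neighbours among them differed beyond their SDs. On day 5 NMPs and Early Spinal Cord both stood at 2.93% (SD 0.0758, n = 14, and 0.0665, n = 15). Mature Endoderm was again last, at 2.51 ± 0.115% (n = 8) against 2.69 ± 0.156% (n = 10) in Somites. MULTI-seq 1 had the same ends on day 5, with NMPs at 2.39 ± 0.0551% (n = 20) and Mature Endoderm at 2.00 ± 0.0444% (n = 3).

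**Figure D4:**
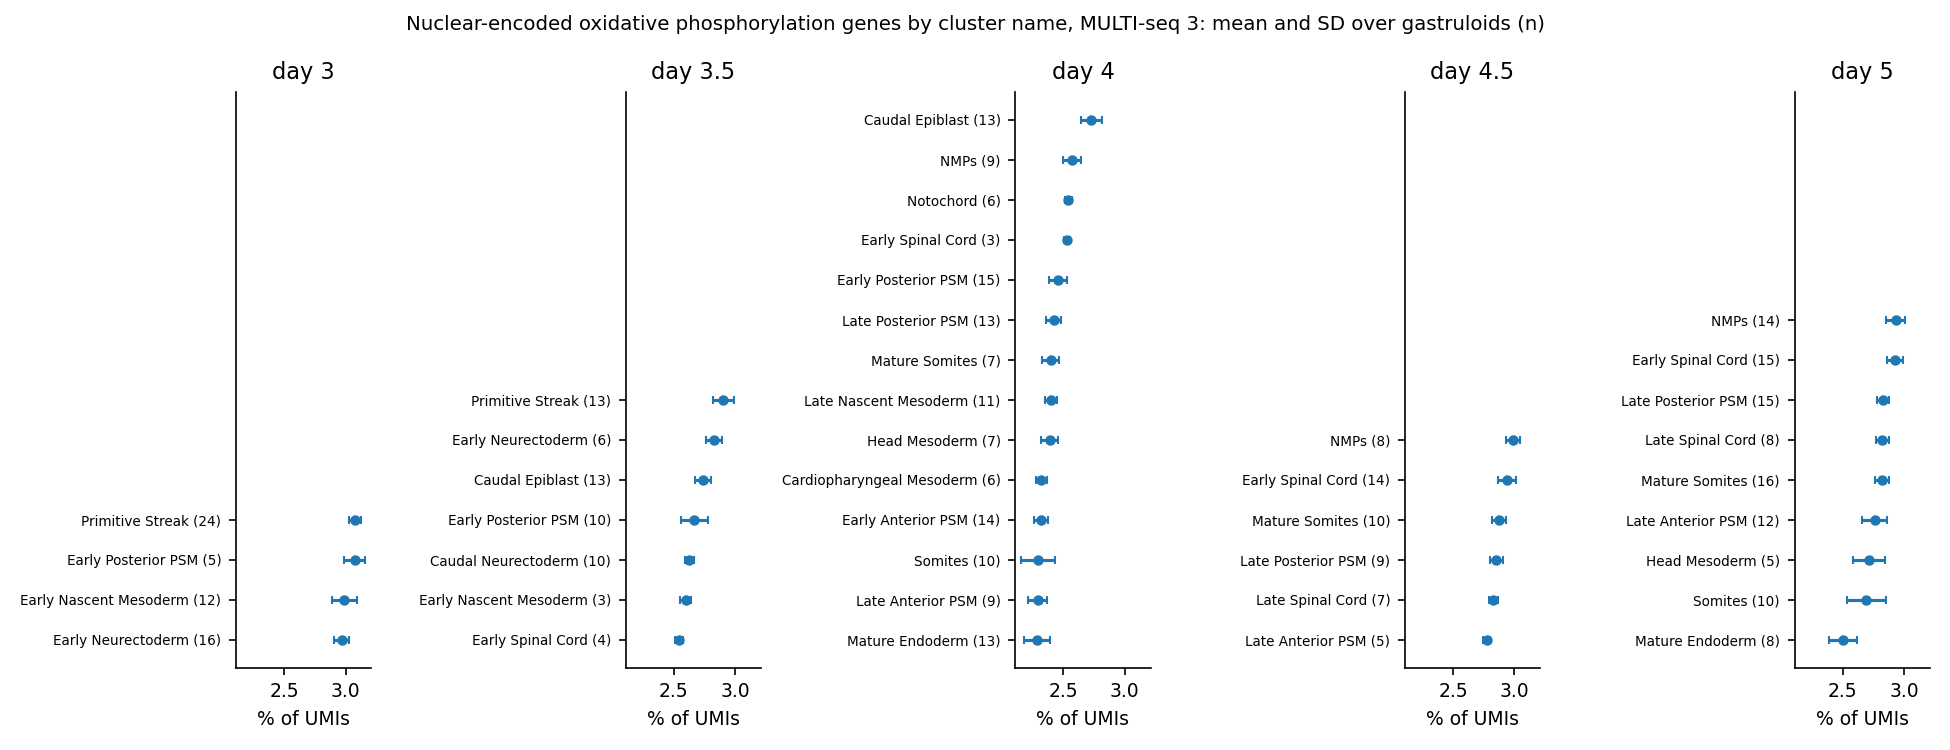
Mean share of UMIs (%) from the 93 genes by cluster name on each day of MULTI-seq 3, with the SD over the gastruloids that had at least 20 cells of the name (their number in parentheses); the horizontal axis does not start at 0. On day 5 NMPs and Early Spinal Cord lie at the upper end (2.93% each) and Mature Endoderm at the lower end (2.51%).

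Pairs of types within the same gastruloid removed the differences between gastruloids. NMPs exceeded Late Posterior PSM in 9 of 9 gastruloids of day 4, 7 of 7 of day 4.5 and 12 of 13 of day 5 in MULTI-seq 3, and in 18 of 19 of MULTI-seq 1. They exceeded Mature Endoderm in 8 of 8 on day 4 and 8 of 8 on day 5, by 0.452 ± 0.126 percentage points (SD) on day 5. There 74 genes were higher on average in NMPs and 13 in Mature Endoderm, while 54.3% of all genes with enough UMIs were higher in NMPs. Early Spinal Cord exceeded Late Spinal Cord in 8 of 8 gastruloids of day 5 in MULTI-seq 3, by 0.127 ± 0.0457 points, in 6 of 7 on day 4.5, in 4 of 4 of MULTI-seq 2 and in 10 of 11 of MULTI-seq 1. In the day 5 pairs of MULTI-seq 3, 72 genes were higher in Early Spinal Cord and 16 in Late Spinal Cord, against 39.9% of all genes higher in the former. Caudal Epiblast exceeded Early Posterior PSM in 7 of 10 gastruloids on day 3.5, by 0.0794 ± 0.130 points, and in 12 of 12 on day 4, by 0.273 ± 0.0947. The first-named type of each of these pairs was thus above the other in most gastruloids. Early against Late Posterior PSM was mixed on day 4, higher in 9 of 13 gastruloids of MULTI-seq 3 and in 0 of 3 of MULTI-seq 2.

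Single genes did not all follow the sum. Ndufaf4 was higher in NMPs than in Mature Endoderm by 1.41 ± 0.19 on the log2 scale on day 5 and by 1.22 ± 0.41 on day 4, in 8 of 8 gastruloids each. Cox7a2 was higher by 0.84 ± 0.15 and 1.07 ± 0.23, also in 8 of 8. Cox7a1 went the other way, with mean log2 differences of −2.16 ± 1.08 and −2.16 ± 0.67, lower in NMPs in all 8 on each day. Between Mature Somites and Mature Endoderm on day 4, Cox4i2 was higher in Mature Somites by 3.25 ± 0.49 in 7 of 7 gastruloids, while on day 5 the mean difference was −0.01 ± 0.72, higher in 4 of 8. Between Early and Late Spinal Cord on day 5, Sdhc was lower in the early type in all 8, with a mean log2 difference of −0.14 ± 0.08.

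The lanes without gastruloid calls, which entered no test, are given as values. In the day 3 lane titled 10X experiment the share was 2.70% in Primitive Streak, 2.64% in Early Nascent Mesoderm, 2.596% in Early Posterior PSM and 2.49% in Caudal Epiblast. Early Posterior PSM was thus below Early Nascent Mesoderm there, while on day 3 of MULTI-seq 3 its mean was above. In the day 4 lane titled 10X experiment the share was 2.30% in Caudal Epiblast, 2.22% in NMPs, 2.19% in Early Spinal Cord and 1.96% in Early Anterior PSM. In the 2 lanes of pool C of MULTI-seq 2 it was 2.90 and 2.85% in Caudal Epiblast, 2.73 and 2.77% in NMPs, 2.74 and 2.70% in Early Spinal Cord and 2.58 and 2.55% in Late Spinal Cord. Early Posterior PSM was at 2.52% in both, below Late Posterior PSM at 2.64 and 2.62%, and Cardiopharyngeal Mesoderm was lowest of the types with at least 100 cells, at 2.43 and 2.44%. The exact binomial 95% interval of the Early Anterior PSM share, from 123 cells, ran from 1.93% to 1.98%, and such intervals cover counting error only.

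The tissue-restricted forms differed in which types held them, again as a description. On day 4 in MULTI-seq 3, Cox4i2 was at 17.7 ± 8.06 CPM in Somites (n = 10; 3.30 to 33.5) and 14.9 ± 2.05 CPM in Cardiopharyngeal Mesoderm (n = 6; 12.6 to 18.3). It was at 13.4 ± 2.99 CPM in Mature Somites (n = 7) and 9.07 ± 2.78 CPM in Early Anterior PSM (n = 14). Late Posterior PSM (1.77 ± 0.953 CPM, n = 13) and Caudal Epiblast (1.10 ± 0.953 CPM, n = 13) were far below. In Mature Somites the level was 7.86 ± 2.88 CPM on day 4.5 (n = 10) and 4.03 ± 2.05 CPM on day 5 (n = 16). Over the whole-gastruloid means of the groups, Cox4i2 ranged from 0.360 to 5.69 CPM and its common partner Cox4i1 from 940 to 1257 CPM.

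Ndufa4l2 peaked in another type among those with at least 20 cells in at least 3 gastruloids, a limit that left out Anterior Primitive Streak. On day 3 it was at 37.1 ± 11.9 CPM in Early Nascent Mesoderm (n = 12; 16.3 to 56.2), 13.01 ± 6.12 CPM in Early Posterior PSM (n = 5) and 6.21 ± 2.07 CPM in Primitive Streak (n = 24). On day 3.5 Early Nascent Mesoderm stood at 55.4 ± 16.9 CPM (n = 3). Caudal Epiblast was at 0.656 ± 0.743 CPM then. On day 5 of MULTI-seq 1 it spread widely within Mature Somites, from 0 to 57.6 CPM (n = 22), 3 of which held no UMI of the gene. Depth there was low, at a median of 11141.5 UMIs per cell, and the part of counting error in that spread was not tested. Whole-gastruloid means of the groups lay between 1.61 and 10.02 CPM for Ndufa4l2 and between 605 and 931 CPM for its partner Ndufa4.

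Cox7a1 had its highest means of days 4 and 5 in Mature Endoderm, at 13.4 ± 2.25 CPM on day 4 (n = 13; 10.3 to 17.1) and 12.1 ± 2.89 CPM on day 5 (n = 8; 9.04 to 16.3). It was at 10.6 ± 2.03 CPM in Primitive Streak on day 3 (n = 24), 7.45 ± 1.99 CPM in Notochord on day 4 (n = 6) and 1.52 ± 0.937 CPM in Late Anterior PSM (n = 9). On day 4 the lowest Mature Endoderm value was above the highest of each other type. Over the whole-gastruloid means of the groups, Cox7a1 stood between 1.77 and 9.21 CPM and Cox7a2 between 420 and 631 CPM.

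Cox6b2 was highest in Primitive Streak among the types with at least 3 gastruloids on days 3 and 3.5, at 140 ± 12.4 CPM on day 3 (n = 24; 116 to 168) and 162 ± 29.9 CPM on day 3.5 (n = 13; 111 to 208). On day 4 it was at 104 ± 11.8 CPM in Notochord (n = 6), 90.2 ± 17.7 CPM in Caudal Epiblast (n = 13), 39.9 ± 6.13 CPM in Late Posterior PSM (n = 13) and 31.3 ± 4.23 CPM in Mature Somites (n = 7). The Notochord and Mature Somites groups did not overlap, at 86.1 to 120 and 24.3 to 37.3 CPM. Cox6a1, the common partner of Cox6a2, lay between 148 and 245 CPM over the whole-gastruloid group means, and Cox8a, that of Cox8b and Cox8c, between 533 and 1129 CPM.

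**Figure D5:**
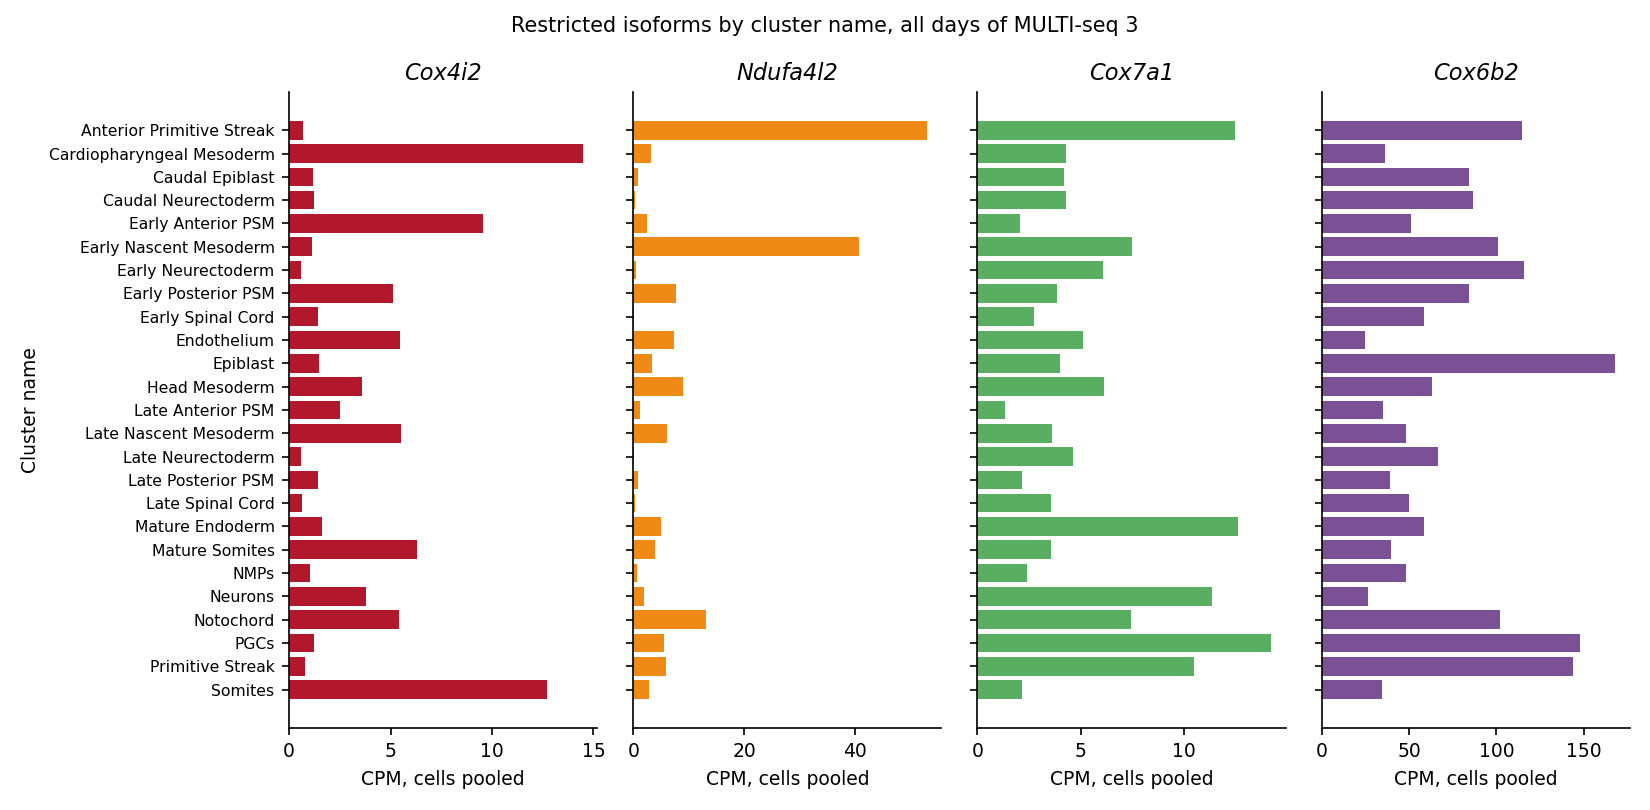
Level in CPM of Cox4i2, Ndufa4l2, Cox7a1 and Cox6b2 by cluster name in MULTI-seq 3; each bar pools the cells of the name with a gastruloid call over all days, so it has no error bar and differs from the means over gastruloids of 1 day given in the text. Pooled Cox4i2 was at 14.5 CPM in Cardiopharyngeal Mesoderm and 12.7 CPM in Somites, and pooled Ndufa4l2 at 52.9 CPM in Anterior Primitive Streak, from 176 cells.

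The muscle form Cox6a2 and the testis form Cox7b2 were near 0, with 165 and 132 UMIs over all gastruloids, and Cox8b, a heart and muscle form, and Cox8c, a testis form, had 9 and 7. In MULTI-seq 3, 23 of the 155 Cox6a2 UMIs came from 181 Epiblast cells, at 2.86 CPM against 0.113 CPM over all cells. These counts were too few to compare gastruloids at this depth.

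The spread between gastruloids of 1 age was smaller for these genes than for genes in general. The median biological coefficient of variation from edgeR was 0.0362 over the members against 0.0590 over all genes tested on day 3 of MULTI-seq 3, 0.0606 against 0.113 on day 4 and 0.0580 against 0.0968 on day 5. It was 0.0845 against 0.107 on day 4 of MULTI-seq 2 and 0.0489 against 0.0768 in MULTI-seq 1. These genes are also more abundant than most, and a comparison at equal abundance was not made. Cox4i2 varied most on day 4 of MULTI-seq 3 (0.531) and Ndufa4l2 on days 3 and 5 (0.387 and 0.328). The least variable were Ndufa2 on day 3 (0.0243) and Atp5j on day 5 (0.0363). The coefficient of variation of the summed share ran from 1.38% on day 5 of MULTI-seq 3 to 3.81% on day 4 of MULTI-seq 2.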

How the data were processed

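Single-cell RNA of mouse gastruloids was measured as UMI counts per gene and cell, which the authors deposited as unnormalised counts per lane. Alignment used Cell Ranger 6.0.0, the build mm10 and Seurat, per the submitters' processing notes. The annotation behind the counts and the handling of reads shared with processed pseudogenes are not given in the sources used. Cluster names and gastruloid calls came from the authors' deposited cell table, which held cells of 18 of 22 lanes; the day 3 and day 3.5 lanes of MULTI-seq 2 were not analysed, and 9 listed cells had no matching barcode.

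Counts were summed over the cells of a gastruloid (at least 30 cells), or of 1 cluster name in it (at least 20), with lanes added together. Cells without a single gastruloid call entered no test, and no doublet caller was run. The number of per-sample columns left unused was 0. The labels do not say whether gastruloids of a group came from separate cultures, so p-values measure the spread between gastruloids. Differences between days were tested with edgeR 4.0.16 (R 4.3.3; quasi-likelihood test, TMM scaling, filterByExpr) with Benjamini-Hochberg adjustment over all genes tested and a threshold of 0.05. Fold changes are TMM-scaled, while CPM are scaled by the library's own total, so the 2 can differ in a shifted comparison. Differences within a gastruloid are log2 ratios of shares of UMIs. A pseudocount of 0.5 was added to the UMI count of a gene in a type before division by the total, so its weight depends on depth. The fit was tested on simulated data. Alternatives were DESeq2 1.42.0, library totals, no filter, at least 100 cells (50 for types), the neural share as a covariate, another denominator, and leaving out each lane; limits of 10 cells and the test between types were added after seeing the data. Other tools were limma 3.58.1, numpy 2.4.6, scipy 1.17.1 and pandas 2.3.3.

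Named genes were the 4 largest called rises and falls per comparison, the complex II genes, the restricted forms and their partners, the highest gene of each complex and Atpif1. Other genes were chosen after their values were seen. The members and lists were chosen with earlier results of these data known. Single-gene positions, exons and transcript lengths are GENCODE's on GRCm38, and promoters are RefSeq's on GRCm38.p6.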

Additional observations from a re-analysis of the deposited data

Results flagged for a closer look

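In 3 of 29 groups of 4 to 10 gastruloids, 1 gastruloid stood far from the others in its share of UMIs from the 93 genes; chance marks about 1 in 20 groups. The highest of 7 gastruloids in Mature Somites of MULTI-seq 2 on day 4.5 had 2.63%, from 66 cells, with the next at 2.54%. The highest of 5 in Early Posterior PSM of MULTI-seq 3 on day 3 had 3.22%, from 38 cells, with the next at 3.07%. The lowest of 5 in Late Anterior PSM of MULTI-seq 3 on day 4.5 had 2.72%, from 23 cells, with the next at 2.78%.

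Effects that differed between groups by an edgeR test of the difference itself were of 2 kinds. The change from day 4 to day 4.5 was larger in MULTI-seq 3 than in MULTI-seq 2 for 79 of 89 genes and smaller for 1. Over all genes the shares were 17.4% and 16.5%, and experiment and pool cannot be told apart there. The change from day 3.5 to day 4 was lower in Early Posterior PSM than in Caudal Epiblast for 31 of 89 genes and higher for 1. Over all genes the shares were 6.01% and 3.04%, in a fit chosen after seeing the data.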

How the results depend on the processing

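Of 100 summary values under other settings, 85 stayed within the limits set for them and 15 moved. From day 4.5 to day 5, the genes called lower were 8 without a filter and 23 with the neural share as a covariate, against 14, while the share of all genes called lower was 2.13 and 12.2%, against 7.11%. In MULTI-seq 2 they were 19 with that covariate, against 6, with 7.41% of all genes against 4.33%. Members called in Caudal Epiblast were 0 with at least 50 cells, where 14 of 10375 genes were lower and 20 higher. Those in Early Spinal Cord from day 4.5 to day 5 were 11 by library totals, where 535 of 9150 genes fell and 564 rose. Those in Late Posterior PSM were 1 with at least 50 cells, where 97 of 9001 genes were lower and 139 higher. With a denominator free of mitochondrial and ribosomal protein genes, the ratio of shares was 1.05 for Late over Early Posterior PSM (MULTI-seq 2, day 4) and 1.18 for Early Spinal Cord over Head Mesoderm (MULTI-seq 2, day 4.5). In MULTI-seq 3 it was 1.08 for Primitive Streak over Early Neurectoderm on day 3 and 1.21 over Early Spinal Cord on day 3.5. The coefficient of variation of the share became 2.06% in MULTI-seq 1 and 3.28, 2.06 and 1.98% on days 3.5, 4.5 and 5 of MULTI-seq 3 with that denominator, and 2.11% on day 4 of MULTI-seq 2 with at least 100 cells. The cause of these shifts was not tested.

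Leaving out each lane gave 75 to 77 genes lower from day 3.5 to day 4, 14 to 15 from day 4.5 to day 5, 2 to 5 in MULTI-seq 2 and 82 to 84 from day 3 to day 3.5. Within pools the shares of all genes lower were 28.6 to 29.1%, 5.05 to 6.12% and 2.04 to 3.25%. From day 3 to day 3.5, 3730 to 4188 of 10898 to 11896 genes were lower. Leaving a lane out gave 79 to 81 higher from day 4 to day 4.5 in MULTI-seq 3, against 3930 to 4118 of 12501 to 12687 genes. Between experiments it gave 66 to 70 higher on day 5, 62 to 72 lower on day 4 and 49 to 50 higher on day 4.5. Over all genes these were 3163 to 3531 of 10862 to 11662, 2251 to 3174 of 13138 to 13897 and 2043 to 2227 of 11236 to 11386. Of 415 values of named genes under other settings, 399 kept direction and call, 9 lost the call, 6 gained it and 1 turned: Cox4i2 from day 4 to day 4.5 in MULTI-seq 3, at 0.034 with the neural covariate (adjusted p = 0.896, edgeR). No paired analysis was possible because gastruloids of different days share no replicate number, and lane letters are technical splits of 1 pool. Types with few cells per gastruloid and genes under about 1 CPM are limited by depth.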
